A study of Mus musculus with 36 samples.

Results

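The data describe 10 enzymes of pyrimidine nucleotide metabolism in 36 subcutaneous mouse tumours. They were chosen as a fixed list of gene symbols and make up 10 of the 37417 genes in the count table. A first set of 7 builds pyrimidine nucleotides (Cad, Dhodh, Umps, Ctps, Ctps2, Cmpk1 and Tyms), and the other 3 (Dpyd, Dpys and Upb1) break down uracil and thymine. Each gene was found by its Ensembl identifier, and 8 of the 10 averaged at least 1 CPM (a gene's counts scaled by the library's total over all genes to a common size) over the 36 libraries. Dpyd and Dpys did not.

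Pyrimidine nucleotides are made from glutamine, bicarbonate and aspartate. Cad carries out the opening steps as 1 large multifunctional protein in the cytosol, Dhodh oxidises dihydroorotate to orotate at the inner mitochondrial membrane, and Umps turns orotate into uridine monophosphate. Cmpk1 phosphorylates uridine and cytidine monophosphates, Ctps and Ctps2 each make CTP from UTP, and Tyms makes thymidylate for DNA. Uracil is degraded in series by Dpyd, Dpys and Upb1, a route best known from the liver. Dividing cells draw on synthesis for RNA and DNA, and several of the synthesis genes are textbook targets of growth and cell cycle regulators.

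The tumours were grown from 3 cell lines in wild type mice aged 12 weeks. MC38 (colon adenocarcinoma) and PancO2 (pancreatic adenocarcinoma) were grown in C57BL/6J mice and CT26 (colon carcinoma) in BALB/c mice. Per the labels, mice received 10 mg/kg of an antibody to PD-1, an antibody to CTLA4 or, as control, rat serum IgG by intraperitoneal injection, and each of the 9 groups held 4 tumours. Each model is a single cell line placed under the skin, away from its tissue of origin, and the RNA came from whole tumour tissue taken at end stage, with the cells of the host in it. Tumours are named by their labelled group and number.

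The labels did not match a strain-specific transcript. H2-Ea-ps, the MHC class II Ea gene that C57BL/6 mice do not express because of a deletion at its start and that BALB/c mice do express, went against the labelled strain in 16 of 36 libraries. The libraries were therefore described by 3 expression classes of 12 libraries each. The H2-Ea-expressing class held the libraries above 10 CPM of H2-Ea-ps (32.8 to 134 CPM, against at most 0.0845 CPM elsewhere). The Cp-high class held those above 1000 CPM of Cp, which encodes ceruloplasmin (1389 to 2168 CPM). The other libraries, with Cp between 255 and 611 CPM, are called Cp-intermediate, since the H2-Ea-expressing class had 36.5 to 143 CPM of Cp. A clustering of all expressed genes gave the same 3 classes for 36 of 36 libraries. In 8 of the 9 labelled groups all 3 classes were present. The classes were cut from the same libraries and follow the clusters of all genes, so values are set side by side between them with no test.

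The library labelled PancO2 anti-PD-1 71, in the H2-Ea-expressing class, stood apart. It had 7883106 counts, against 11821687 to 41751023 in the other 35. Reads not assigned to 1 gene made up 86.5% of its reads (44.8% to 63.4% elsewhere), mitochondrial transcripts 15.7% of its counts (2.80% to 4.35%) and genes with a pseudogene symbol ending in -ps 0.552% (0.0358% to 0.0783%). Results that rest on this library are given with and without it.

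Over the 36 libraries, and per kilobase of exon so that genes can be compared, the median level was highest for Ctps at 36.5 CPM per kb, then Cmpk1 at 26.6, Cad at 16.9, Umps at 16.2, Ctps2 at 10.1 and Tyms at 8.53 CPM per kb. Dhodh, the mitochondrial step, was the lowest of the synthesis genes at 2.04 CPM per kb. The catabolic genes were far lower, with medians of 0.191 CPM per kb for Upb1, 0.0428 for Dpys and 0.00747 for Dpyd. Cad and Umps had close medians, and their ranges over the libraries overlapped.

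**Figure D1:**
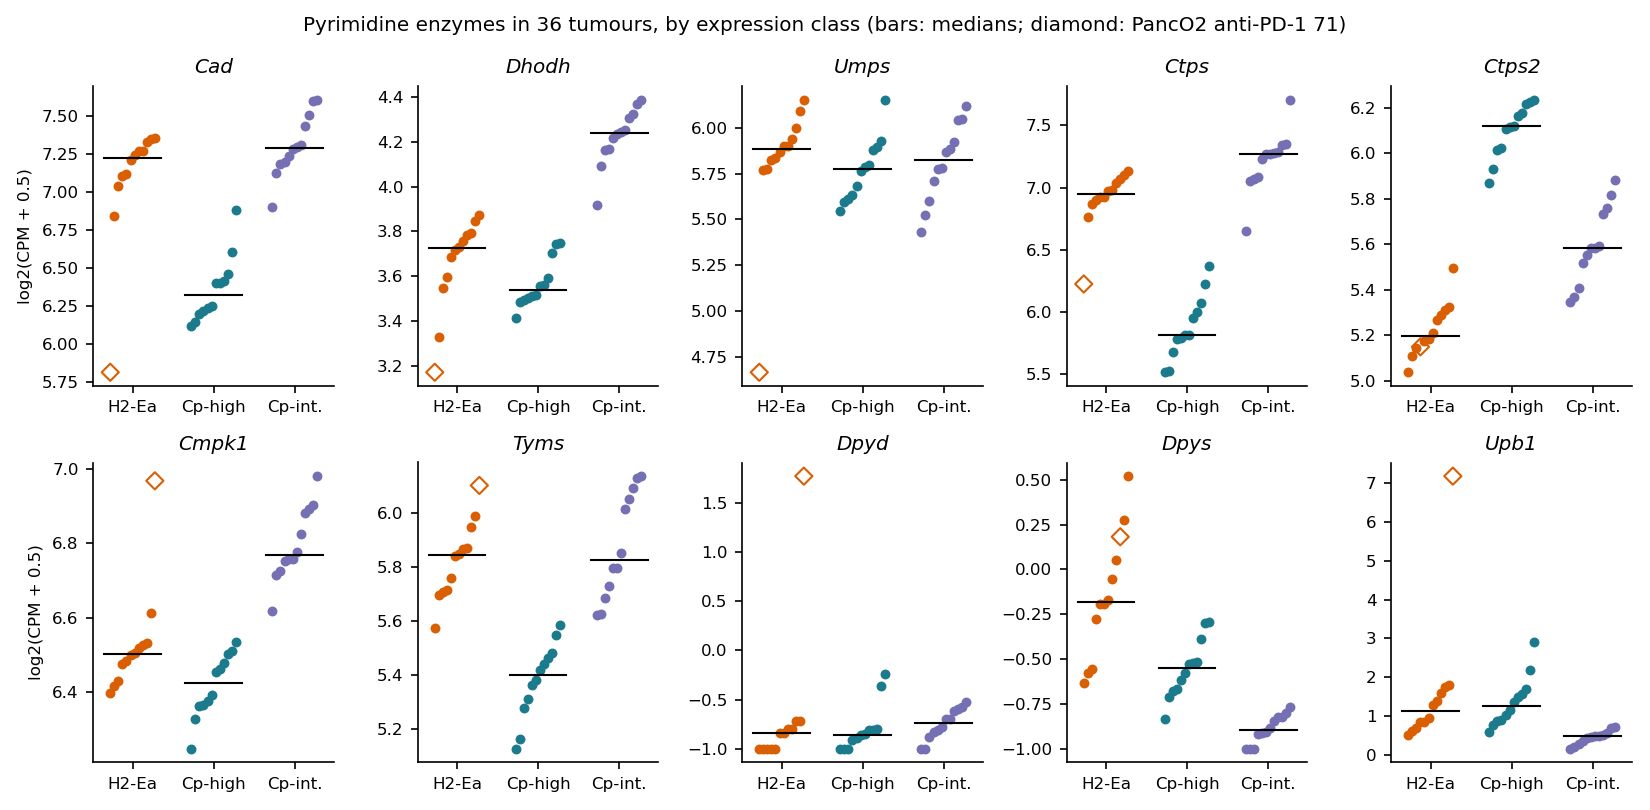
Each panel shows 1 gene and each point 1 tumour, with log2(CPM + 0.5) on the vertical axis and the 3 expression classes (12 tumours each, ordered by value within a class) on the horizontal axis; bars are medians and the open diamond is the library PancO2 anti-PD-1 71. Cad, Ctps and Tyms sit lowest in the Cp-high class and Ctps2 highest, while the Umps classes overlap.

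The promoters of the 4 synthesis genes whose levels are followed against proliferation further on are shown to place them in the genome. The windows are the 250 bases before the RefSeq start in GRCm38.p6, written 5′ to 3′ on the strand of the gene. Of the 10 genes, 8 had a promoter entry. Capitals mark the letters of an E-box, CACGTG, the motif bound by Myc and its partners. Cad lies on the plus strand of chromosome 5 (window chr5:31054530-31054779), Umps on the minus strand of chromosome 16 (chr16:33967039-33967288), Ctps on the minus strand of chromosome 4 (chr4:120570277-120570526) and Tyms on the minus strand of chromosome 5 (chr5:30073626-30073875). None of these windows overlapped a GENCODE exon of its gene.
Cad: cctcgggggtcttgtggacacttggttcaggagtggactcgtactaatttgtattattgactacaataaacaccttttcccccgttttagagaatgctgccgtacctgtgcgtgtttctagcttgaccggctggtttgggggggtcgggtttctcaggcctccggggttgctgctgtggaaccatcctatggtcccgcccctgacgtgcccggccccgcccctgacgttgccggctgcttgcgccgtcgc
Umps: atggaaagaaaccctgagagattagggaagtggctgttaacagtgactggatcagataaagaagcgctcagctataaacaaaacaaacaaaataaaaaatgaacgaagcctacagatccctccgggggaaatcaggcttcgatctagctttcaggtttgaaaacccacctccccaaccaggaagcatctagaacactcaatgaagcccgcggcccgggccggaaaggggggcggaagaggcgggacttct
Ctps: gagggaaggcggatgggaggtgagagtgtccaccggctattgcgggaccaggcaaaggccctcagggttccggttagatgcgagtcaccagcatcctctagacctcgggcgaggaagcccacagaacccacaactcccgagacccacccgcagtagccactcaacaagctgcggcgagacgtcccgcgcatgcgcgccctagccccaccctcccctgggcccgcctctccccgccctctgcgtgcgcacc
Tyms: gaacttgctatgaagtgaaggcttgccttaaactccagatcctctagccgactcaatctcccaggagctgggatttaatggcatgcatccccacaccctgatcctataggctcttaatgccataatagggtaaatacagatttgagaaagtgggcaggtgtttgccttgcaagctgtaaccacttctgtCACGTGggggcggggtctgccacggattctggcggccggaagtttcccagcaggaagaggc
Within these windows the E-box was found in Tyms alone, 61 bases before the start, and it occurs on either strand in 6.02% of 32817 mouse promoters of the same length. The E2F letters TTTCCCGC, TTTGGCGC, TTTCGCGC and TTTGCCGC were in none of the 8 genes' windows and are in 1.86% of all promoters. In the printed windows G and C made up 67.6% of Ctps, 58.8% of Cad, 52.0% of Tyms and 49.6% of Umps, against a median of 52.4% over all promoters, and the 4 held 20, 17, 6 and 10 CpG dinucleotides, against a median of 6.

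Cad was lowest in the Cp-high class. Its protein catalyses the first steps of synthesis, and its lowest, median and highest values were 69.0, 79.6 and 117 CPM in the Cp-high class, 119, 156 and 194 CPM in the Cp-intermediate class and 55.7, 149 and 163 CPM in the H2-Ea-expressing class. The Cp-high and Cp-intermediate libraries did not overlap on the CPM scale, and the medians differed 1.96-fold. Against the H2-Ea-expressing class the medians differed 1.87-fold, and the overlap remained without PancO2 anti-PD-1 71, since the next lowest H2-Ea-expressing library had 114 CPM and the highest Cp-high library 117 CPM. In bulk tissue, fewer cells of a type and less RNA per cell cannot be told apart, here and for every gene that follows.

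The 2 CTP synthase genes ran in opposite directions in the Cp-high class against either other class. Between the H2-Ea-expressing and Cp-intermediate classes both medians were lower in the former. The ratios were 0.800 for Ctps and 0.762 for Ctps2, with overlapping libraries. Ctps, on chromosome 4, had 45.3, 55.7 and 82.3 CPM (lowest, median, highest) in the Cp-high class, 99.8, 154 and 208 CPM in the Cp-intermediate class and 74.3, 123 and 139.6 CPM in the H2-Ea-expressing class. Ctps2, its paralogue on the X chromosome, had 57.997, 69.0 and 74.9 CPM in the Cp-high class, 40.3, 47.5 and 58.6 CPM in the Cp-intermediate class and 32.4, 36.2 and 44.6 CPM in the H2-Ea-expressing class. Every Cp-high library was therefore below every Cp-intermediate library in Ctps, with a 2.76-fold difference of medians. Every Cp-high library was above every H2-Ea-expressing library in Ctps2, with a 1.91-fold difference. Against Cp-intermediate, 11 of the 12 Cp-high libraries exceeded all others in Ctps2, and the remaining one, CT26 anti-CTLA4 36, had 57.997 CPM beside a highest Cp-intermediate value of 58.6 CPM.

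Per kilobase of exon, the ratio of Ctps to Ctps2 was 4.66 ± 0.667 (SD, n = 12) in the H2-Ea-expressing class, 4.55 ± 1.22 (SD, n = 12) in the Cp-intermediate class and 1.24 ± 0.247 (SD, n = 12) in the Cp-high class. The highest ratio of a Cp-high library was 1.65 and the lowest of the other 24 was 2.43. In 10 of 12 Cp-high libraries Ctps was still the higher of the pair, and in the other 2 it was the lower.

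**Figure D2:**
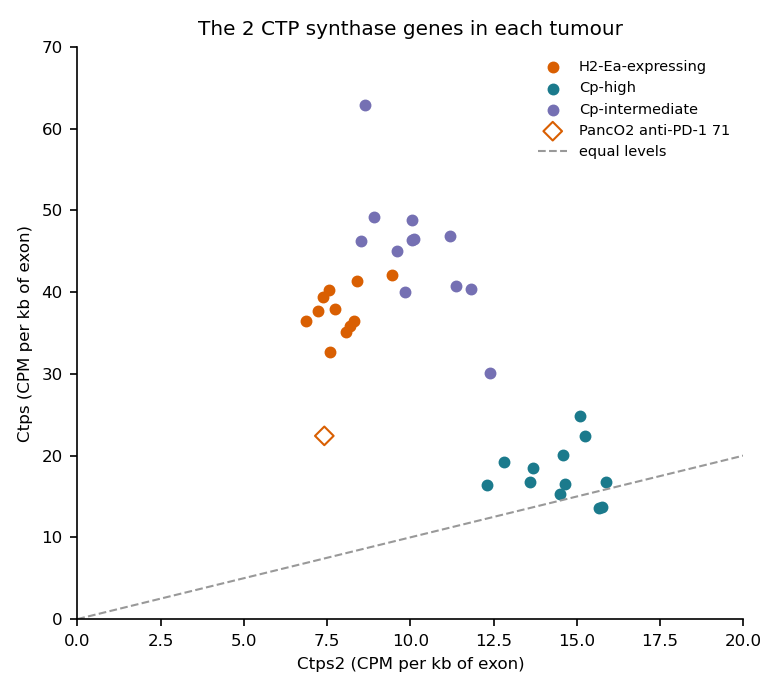
Each point is 1 tumour, with Ctps2 on the horizontal and Ctps on the vertical axis, both in CPM per kilobase of exon; colours are the 3 expression classes, the open diamond is PancO2 anti-PD-1 71 and the dashed line marks equal levels. The 12 Cp-high tumours lie near the line, with ratios from 0.872 to 1.65, and all other tumours lie above it.

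Tyms was also lowest in the Cp-high class. It had 34.5, 41.8 and 47.5 CPM (lowest, median, highest) in the Cp-high class, 48.8, 56.2 and 69.9 CPM in the Cp-intermediate class and 47.2, 57.04 and 68.2 CPM in the H2-Ea-expressing class. The Cp-high libraries lay below all Cp-intermediate libraries (1.35-fold between medians) and overlapped the H2-Ea-expressing ones only through PancO2 anti-PD-1 70, at 47.5 CPM, and PancO2 IgG 54, at 47.2 CPM. Cmpk1 was highest in the Cp-intermediate class. It had 75.4, 85.3 and 92.1 CPM in the Cp-high class, 97.7, 108 and 126 CPM in the Cp-intermediate class and 83.8, 90.1 and 125 CPM in the H2-Ea-expressing class, where the 125 was PancO2 anti-PD-1 71 and the next value 97.3 CPM.

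Dhodh was likewise highest in the Cp-intermediate class. It had 14.6, 18.4 and 20.5 CPM there, 10.1, 11.1 and 12.9 CPM in the Cp-high class and 8.50, 12.7 and 14.1 CPM in the H2-Ea-expressing class. All 12 Cp-intermediate libraries were above the 24 others, 1.66-fold over the Cp-high median and 1.45-fold over the H2-Ea-expressing median. With TMM-scaled CPM (a scaling by trimmed means) or DESeq2 size factors the H2-Ea-expressing and Cp-intermediate libraries overlapped in Dhodh, with log2 differences of medians of -0.42 and -0.41 against -0.51. Umps showed no such order, with medians of 54.3, 56.2 and 58.6 CPM in the Cp-high, Cp-intermediate and H2-Ea-expressing classes and ranges that overlapped throughout. Among the genes annotated over a member, the antisense gene Gm15829 alone shares exon sequence with one, 213 bp of Umps, so that without a stated strand setting reads from these 2 cannot be told apart there.

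These counts need their background. Of 14125 genes averaging at least 1 CPM, 30.7% did not overlap between the Cp-high and Cp-intermediate classes, and 16.04% were lower in every Cp-high library. Of the 8 members measured, 5 did not overlap, and all 5 (Cad, Dhodh, Ctps, Cmpk1 and Tyms) were lower in the Cp-high class. Which members these were depended on the scaling, since with TMM-scaled CPM and with DESeq2 size factors Cad and Tyms overlapped and Ctps2 did not, leaving 4 in all. With class limits of 1 and 500 CPM, which put PancO2 IgG 49 into the Cp-high class, only Cad and Tyms did not overlap. Between the Cp-high and H2-Ea-expressing classes the share over all genes was 31.7%, and 1 of 8 members, Ctps2, did not overlap. Between the H2-Ea-expressing and Cp-intermediate classes it was 26.9%, and again 1 of 8, Dhodh, did not overlap (0 with either other scaling). Without PancO2 anti-PD-1 71 the last 2 shares were 40.6% and 34.98%, and the members were Ctps2 and Ctps in the first and Dhodh and Cmpk1 in the second. In these last comparisons the members' shares were below those of all genes. The median log2 difference over all expressed genes was -0.03, 0.07 and -0.08 in the 3 comparisons in the order given.

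Other transcripts moved with the classes. The 22 mitotic genes used as a proliferation measure further on summed to 2151 to 3487 CPM in the Cp-high class, 3340 to 4684 CPM in the H2-Ea-expressing class and 3665 to 5003 CPM in the Cp-intermediate class, so the class with the lowest medians of Cad, Ctps and Tyms also had the lowest mitotic sum. All 9 fibroblast markers reached a median of 1 CPM in each class, and their sum was 1940 to 3955 CPM in the H2-Ea-expressing, 3320 to 6582 CPM in the Cp-high and 5709 to 12970 CPM in the Cp-intermediate class. The 10 macrophage markers, likewise all present, summed to 839 to 1640 CPM, 1182 to 2077 CPM and 1694 to 2569 CPM in the same order. The 6 T cell markers summed to 17.2 to 44.4 CPM, 44.7 to 144.7 CPM and 4.80 to 88.7 CPM, so the Cp-high libraries were above all H2-Ea-expressing ones, and the 5 neutrophil markers had median sums of 26.2, 68.8 and 48.9 CPM. The part of these cells in the class values was not tested.

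The rest of the pathway did not move as 1 block. Of 33 neighbouring genes of pyrimidine supply and use, 28 averaged at least 1 CPM. Between the Cp-high and Cp-intermediate classes 4 of 28 did not overlap, beside 30.7% of all genes, with Cmpk2, a mitochondrial UMP-CMP kinase also known as an interferon-induced gene, at medians of 82.9 and 18.6 CPM, and Dut, which removes dUTP, at 184 and 110 CPM. Dctd, which deaminates dCMP, ran the other way at 12.4 and 44.5 CPM, as did Shmt1, a folate enzyme, at 17.05 and 50.6 CPM.

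Between the Cp-high and H2-Ea-expressing classes 7 of 28 did not overlap (12 without PancO2 anti-PD-1 71, beside 31.7% and 40.6% of all genes), among them Upp1, uridine phosphorylase, at 17.7 and 107 CPM. Cda, the cytidine deaminase of the salvage route on which the study centred, was among the 4 that were higher in every Cp-high library, at medians of 14.3 and 5.61 CPM, beside 4.65 CPM in the Cp-intermediate class, where the Cp-high range overlapped in 1 library. Between the H2-Ea-expressing and Cp-intermediate classes 5 of 28 did not overlap (8 without PancO2 anti-PD-1 71, beside 26.9% and 34.98% of all genes), among them Nme4, a mitochondrial nucleoside diphosphate kinase, at 1.12 and 10.1 CPM.

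The catabolic genes were close to the limit of detection. Dpyd, which opens uracil breakdown, had no count in 10 of 36 libraries, and 35 of 36 were under 1 CPM. The exception was PancO2 anti-PD-1 71 with 2.92 CPM from 23 counts. A count of 0 allows up to 3 counts, or 0.0719 to 0.381 CPM depending on the depth of the library, so differences in Dpyd between classes were not detectable at this depth.

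Dpys, the second enzyme, was under 1 CPM in all 36 libraries, with no count in 3 of them. Its lowest, median and highest values were 0.144, 0.381 and 0.934 CPM in the H2-Ea-expressing class, 0.0600, 0.182 and 0.315 CPM in the Cp-high class and 0, 0.0381 and 0.0886 CPM in the Cp-intermediate class. All 12 H2-Ea-expressing libraries were above all Cp-intermediate ones, but the latter had at most 3 counts each and the former 2 to 31 counts, so no fold is given.

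Upb1, the last enzyme of the route, had 0.912, 1.68 and 145 CPM in the H2-Ea-expressing class, 0.993, 1.88 and 7.01 CPM in the Cp-high class and 0.608, 0.885 and 1.14 CPM in the Cp-intermediate class. In the Cp-high class 11 of 12 libraries were above all Cp-intermediate libraries. The 145 CPM, from 1144 counts, belonged to PancO2 anti-PD-1 71, and the next highest library of its class had 2.99 CPM. In that library the 4 liver markers summed to 1.90 CPM, the highest of the 36 libraries (at most 1.27 CPM in the rest of its class). The 4 B cell markers summed to 18.1 CPM (at most 3.13 in the rest of its class). The 5 neutrophil markers summed to 115 CPM, against at most 54.1 in the rest of its class. Neutrophil sums reached 189 CPM in the Cp-high and 250 CPM in the Cp-intermediate class. The part of these cells in the Upb1 value was not tested. The 7.01 CPM belonged to PancO2 IgG 48, which had the highest skin keratin score of its class (6.24 log2 units above the mean of 36 libraries, a sum of 517 CPM over 4 keratins). The next highest Upb1 of the class, 4.001 CPM in CT26 IgG 28, came with a keratin score of -0.42, and the next highest keratin score, 2.998 in MC38 anti-PD-1 17, with 1.37 CPM of Upb1. The part of skin in these values was not tested.

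The labelled comparisons set the models and the treatments side by side by their labels, and gave no call for any member. H2-Ea-ps went against the labelled strain in 16 of 36 libraries, and 8 of the 9 labelled groups held all 3 classes. These comparisons therefore cannot show whether the models or the treatments differ. In the IgG tumours Cad had 73.7, 114, 119 and 146 CPM in PancO2, 83.8, 154, 181 and 193 CPM in CT26 and 69.0, 138, 157 and 162 CPM in MC38, each in rising order. The lowest tumour of each of these groups was its Cp-high tumour. Cad differed by -0.44 on the log2 scale between PancO2 and CT26 (SE 0.33), with an edgeR quasi-likelihood adjusted p of 0.9999 over all genes.

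Across the 3 comparisons of models and the 6 of antibody against IgG, edgeR called 0 of 16285 to 16510 genes (0%) at an adjusted p under 0.05, and hence 0 of 8 members. Dpyd and Dpys fell below the count filter. At an unadjusted p under 0.05 there were 25 to 912 genes, DESeq2 called at most 2 genes and limma-voom 0, none of them a member. The 6 treatment comparisons share their IgG tumours in pairs. Apart from Upb1, the members' log2 fold changes lay between -0.44 and 0.22.

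Upb1 was the only member with an unadjusted p under 0.05, in PancO2 anti-PD-1 against IgG. Its 4 anti-PD-1 values were 1.32, 1.71, 1.94 and 145 CPM and its IgG values 0.768, 1.14, 1.42 and 7.01 CPM. The means were 37.5 ± 71.7 (SD, n = 4) and 2.59 ± 2.96 (SD, n = 4) CPM, and the anti-PD-1 mean was set by PancO2 anti-PD-1 71. The log2 fold change was 3.97 (SE 1.52, edgeR adjusted p = 0.806), and 5.56% of all genes had an unadjusted p under 0.05 in this comparison.

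Several synthesis genes showed the class order within the labelled groups too. These are the libraries of the class ranges above, so this order largely follows from those ranges and is no further support for them. In 9 of 9 groups the Cp-high tumours had more Ctps2 than every other tumour of the group, as for 11.5% of 14125 genes, and in 9 of 9 they had less Tyms, as for 8.64%. Cad and Ctps were each lowest in the Cp-high tumours of 8 of 9 groups (14.8% of genes in at least 8), the exception being PancO2 anti-PD-1, where PancO2 anti-PD-1 71 was lower in Cad and between the Cp-high values in Ctps. Dhodh and Cmpk1 were each lowest there in 6 of 9 groups (23.5% of genes in at least 6), and Umps in 2, while it was highest in 1.

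**Figure D3:**
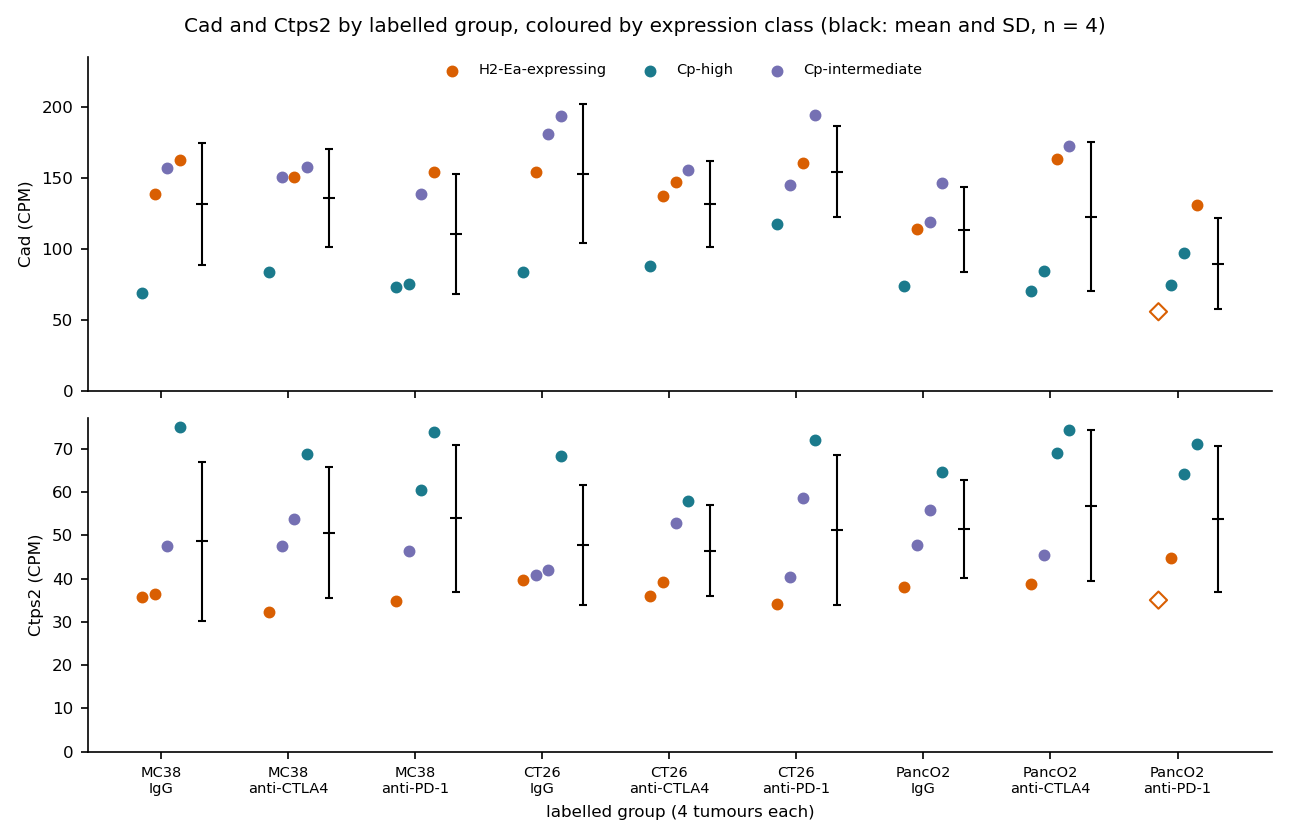
The panels show Cad (top) and Ctps2 (bottom) in CPM on axes that start at 0, with the 9 labelled groups of 4 tumours on the horizontal axis; points are tumours coloured by expression class, the open diamond is PancO2 anti-PD-1 71, and black marks are the mean and SD of 4. In every group the Cp-high tumours are highest in Ctps2, and in every group but PancO2 anti-PD-1 they are lowest in Cad.

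Proliferation was then followed inside each class, since the classes differ and a pooled correlation would mix them. The mitotic score is the mean over 22 mitotic genes, such as Mki67 and Top2a, of log2(CPM + 0.5) after subtracting each gene's mean over 36 libraries. A second score used 20 DNA replication genes, such as Mcm2 and Pcna. No member is in either score. Each relation was given a Pearson r and a Spearman rho with a two-sided permutation p, and a p adjusted over all genes came from an edgeR fit of the counts on the score.

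In the Cp-high class, where the mitotic score ran from -0.74 to -0.06, 3 of the synthesis genes rose with proliferation. Ctps had an r of 0.849 (permutation p = 0.00071) and a rho of 0.776 (permutation p = 0.00431), and r was 0.722 without the 2 libraries farthest from the median score. Its counts rose by 1.24 log2 units per unit of score (SE 0.22, edgeR adjusted p = 0.00765). Tyms rose by 0.63 log2 units per unit (SE 0.16, edgeR adjusted p = 0.0343), with an r of 0.724 (permutation p = 0.0077), a rho of 0.790 (permutation p = 0.00303) and an r of 0.441 without the 2 farthest libraries. Umps rose by 0.73 (SE 0.20, edgeR adjusted p = 0.0474), with an r of 0.686 (permutation p = 0.0129), a rho of 0.720 (permutation p = 0.0104) and an r of 0.637 without those 2.

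Cad, with an r of 0.607 (permutation p = 0.0346), a rho of 0.650 (permutation p = 0.0254) and an r of 0.574 without the 2 farthest, had a slope of 0.79 log2 units per unit of score (SE 0.26) and an edgeR adjusted p of 0.0809. The 3 calls were among 8 members tested, and 6.47% of 16595 genes were called in the same fit. At an r of at least 0.6 there were 4 of 8 members (Cad, Umps, Ctps and Tyms), against 10.7% of 14082 genes. Ctps2 had an r of -0.350, which was 0.04 with TMM-scaled CPM, and a slope of -0.08 log2 units per unit (SE 0.16, edgeR adjusted p = 0.782), so a 95% interval from the SE includes no change.

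These calls depended on single libraries. Without PancO2 anti-PD-1 70, which had the highest Ctps and Tyms of the class, no member was called. Ctps was called without each of the other 11 libraries in turn, Tyms without 7 and Umps without 3. All 4 were called without PancO2 IgG 48. Without CT26 anti-CTLA4 36, MC38 anti-PD-1 18, MC38 IgG 7 or PancO2 anti-CTLA4 57 the call was on Ctps alone. In the same 12 libraries the mitotic score had an r of -0.641 with the mitochondrial share of counts (permutation p = 0.0258, rho -0.545, adjusted over all such relations 0.271) and of 0.517 with log2 total counts (permutation p = 0.0844, rho 0.650), and the part of either was not tested.

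With the replication score, edgeR called 4 of 8 members in the Cp-high class (Cad, Umps, Ctps and Tyms), where 4.39% of genes were called. The same 4 had an r of at least 0.6, as did 9.74% of genes. The slopes were 1.18 log2 units per unit of score for Ctps (SE 0.19, edgeR adjusted p = 0.00487), 0.88 for Cad (SE 0.20, edgeR adjusted p = 0.0274), 0.80 for Umps (SE 0.14, edgeR adjusted p = 0.00852) and 0.60 for Tyms (SE 0.14, edgeR adjusted p = 0.0338). Without PancO2 anti-PD-1 70 only Umps was called. Without CT26 anti-CTLA4 36, CT26 anti-PD-1 46, MC38 anti-PD-1 18 or PancO2 anti-CTLA4 57 the calls were Umps and Ctps. Leaving out MC38 IgG 7 lost Tyms, and all 4 were called without each of the other libraries in turn. The 2 scores had an r of 0.925 in this class.

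In the Cp-intermediate class the members did not follow the mitotic score, with r between -0.44 and 0.30, no member at 0.6 or above (3.41% of genes) and 0 of 8 members or 16347 genes called (0%), beside 1299 genes at an unadjusted p under 0.05. Against the replication score, r was 0.857 for Umps (permutation p = 0.00026) and rho 0.825 (permutation p = 0.00183). Tyms had an r of 0.810 (permutation p = 0.00044) and a rho of 0.860 (permutation p = 0.00071), and Cad an r of 0.669 (permutation p = 0.0182) and a rho of 0.860 (permutation p = 0.00072). Ctps had an r of 0.704 (permutation p = 0.021) but a rho of 0.413 (permutation p = 0.185), and r was 0.423 without the 2 libraries farthest from the median score, so this relation rests on them. The other 3 kept an r of 0.774, 0.830 and 0.761 without the 2 farthest. Ctps2 ran the other way, with an r of -0.769 (permutation p = 0.00245) and a rho of -0.741 (permutation p = 0.00828), an r of -0.560 without the 2 farthest and a slope of -0.92 (SE 0.24). At an r of at least 0.6 there were 4 of 8 members, against 7.92% of genes, but edgeR called none of them after adjustment over all genes, with the smallest members' adjusted p at 0.0820 for Umps and 4 genes (0.0239%) called in all.

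In the H2-Ea-expressing class 1 library set the result. No member reached an r of 0.6 with the mitotic score, where 5.76% of genes did, and edgeR called no gene (1946 at an unadjusted p under 0.05). Without PancO2 anti-PD-1 71 Cmpk1 and Tyms reached it, against 10.1% of genes, and edgeR called 0.415% of genes and no member. With all 12 libraries the replication score had an r of 0.924 with Cad and 0.926 with Umps, and 35.2% of genes had an r of at least 0.6 and 42.6% were called by edgeR in that fit. Without PancO2 anti-PD-1 71 edgeR called 0 of 15897 genes (917 at an unadjusted p under 0.05), and r was 0.642 for Cad (permutation p = 0.0314, rho 0.491), 0.660 for Umps (permutation p = 0.0262, rho 0.709) and 0.861 for Tyms (permutation p = 0.00077, rho 0.845), so that 3 of 8 members reached 0.6 against 5.13% of genes. The lone library had a replication score of -0.48, where the next lowest of its class was 0.01.

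**Figure D4:**
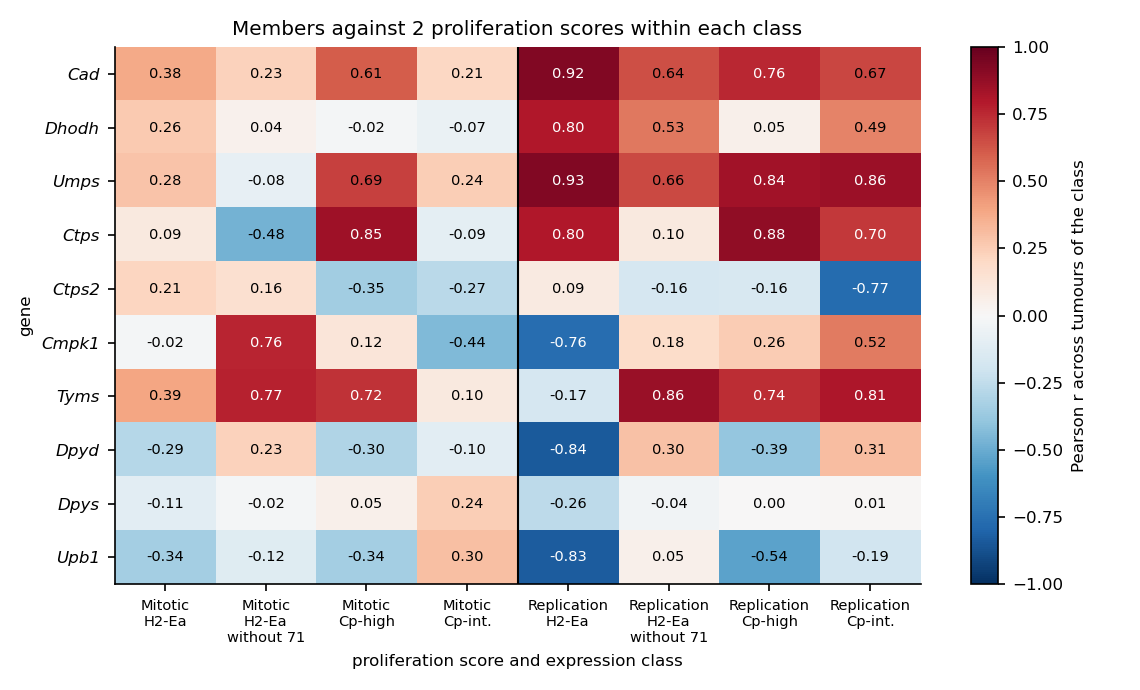
Rows are the 10 genes and columns the 2 proliferation scores in each class, with the H2-Ea-expressing class also shown without PancO2 anti-PD-1 71; each cell is the Pearson r over 12 tumours (11 without that library), on a colour scale from -1 to 1. Cad, Umps and Tyms are at 0.64 or above with the replication score in the Cp-high and Cp-intermediate classes and in the H2-Ea-expressing class without that library.

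**Figure D5:**
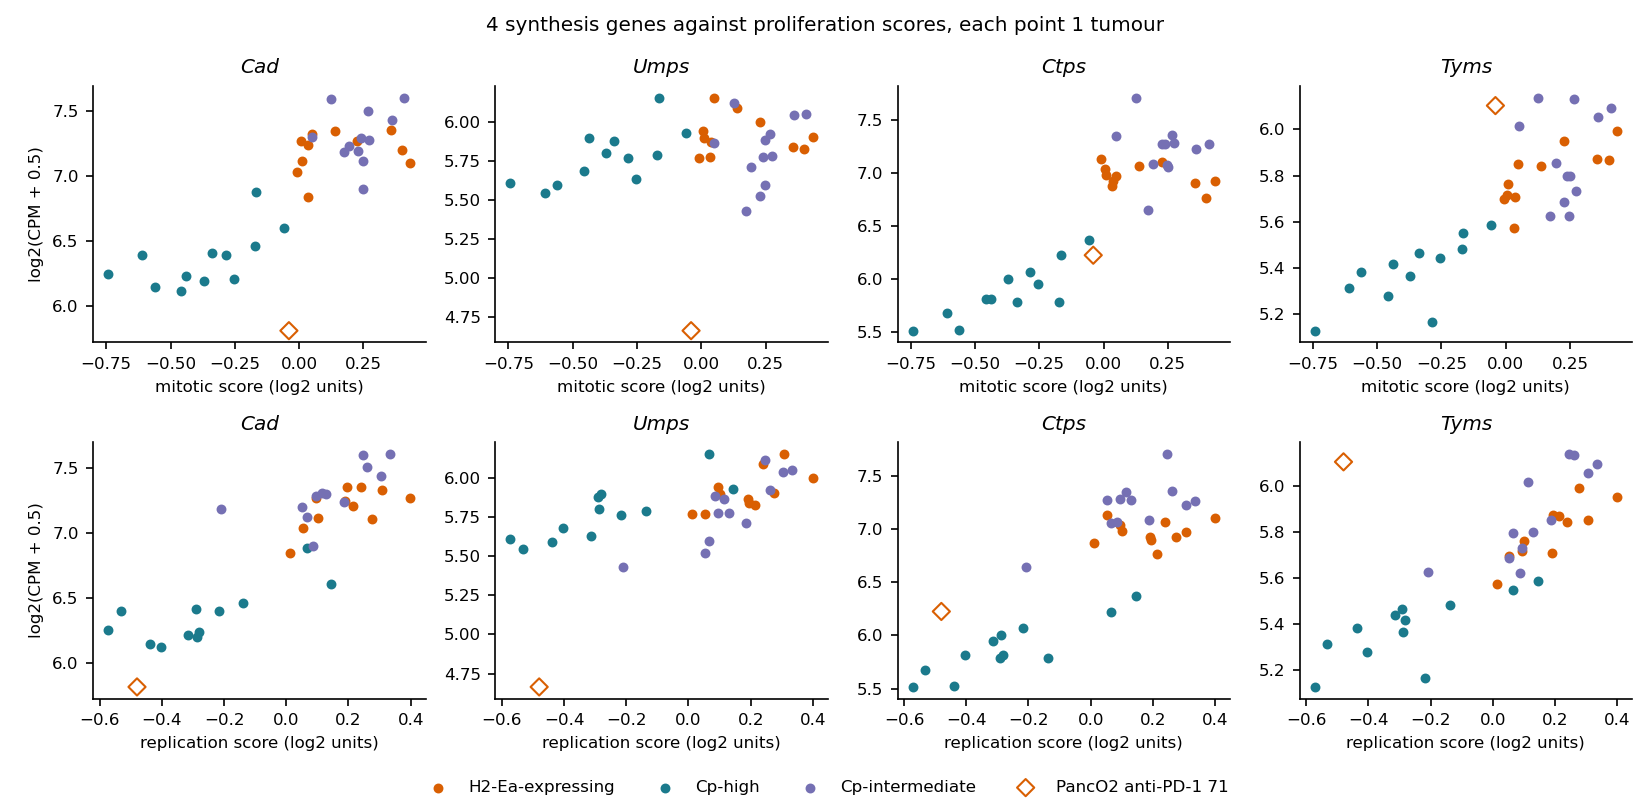
Each point is 1 tumour, with the mitotic score (top row) or replication score (bottom row) on the horizontal axis and log2(CPM + 0.5) of Cad, Umps, Ctps or Tyms on the vertical axis; colours are expression classes and the open diamond is PancO2 anti-PD-1 71. Ctps climbs with both scores inside the Cp-high class, and PancO2 anti-PD-1 71 lies far from its class in Cad, Umps, Ctps and, against the replication score, Tyms.

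Neither the macrophage nor the fibroblast score gave a member that edgeR called within a class. In the H2-Ea-expressing class 0.267% and 0.140% of genes were called on these scores (1.30% and 0.718% without PancO2 anti-PD-1 71), and in the Cp-high class 0.181% on the fibroblast score. On the macrophage score 0% of genes were called in the Cp-high and in the Cp-intermediate class. On the fibroblast score 0% were called in the Cp-intermediate class. With shares this low over all genes, the lack of a call says little about the members. Of 30 relations to the macrophage score, 1 had a permutation p under 0.05, and of 30 to the fibroblast score 3 did. The strongest was Cmpk1 with the fibroblast score in the Cp-intermediate class, at an r of 0.737 (permutation p = 0.00649).

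Some of the members moved with one another inside the classes. Over 35 libraries, leaving out PancO2 anti-PD-1 71 and after removing class means, r was 0.68 between Cad and Tyms, 0.68 between Umps and Tyms, 0.67 between Cad and Umps and 0.66 between Umps and Ctps. These 4 of the 28 pairs among the 8 measured members reached 0.6, beside 1.59% of all gene pairs, and the median over the 28 was 0.185. Dhodh with Ctps was at 0.14 and Cad with Cmpk1 at 0.26. The lowest pairs held Ctps2, at -0.50 with Tyms, -0.45 with Umps and -0.44 with Cad. The points share their libraries and hence depth and composition, and no p is given.

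Among the 10082 genes averaging at least 10 CPM, the nearest to each member by the same measure over 36 libraries included enzymes of nucleotide and folate metabolism for Cad (Pfas, a purine synthesis enzyme, r = 0.918) and Umps (Mthfd1, a folate enzyme, r = 0.948). Ctps was nearest to Nsun2, an RNA methyltransferase (r = 0.911), Tyms to Pclaf, a PCNA-binding protein (r = 0.879), and Cmpk1 to Dnajc8 (r = 0.860). Dhodh was nearest to Hacd3 (r = 0.798), Ctps2 to Pdlim2 (r = 0.64), and Upb1 was nearest to Syt11 (r = 0.980). The 10082 genes were chosen with PancO2 anti-PD-1 71 included, and the same genes were compared again without it. Some of them may thus have reached 10 CPM only through that library. Without PancO2 anti-PD-1 71 the first names were Gart, also a purine synthesis enzyme, for Cad (r = 0.856), Mthfd1 for Umps (r = 0.882), Nsun2 for Ctps (r = 0.881), Alyref for Tyms (r = 0.917), Ufsp2 for Cmpk1 (r = 0.768), Lamb2 for Ctps2 (r = 0.746), Sppl2b for Dhodh (r = 0.691) and Syt11 for Upb1 (r = 0.915), and 7 of the 24 names in all stayed among the nearest 3.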

How the data were processed

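Total RNA from 36 whole tumours was sequenced. The authors mapped reads to GRCm38 (mm10) with TopHat and Bowtie and assigned them to Ensembl genes with HTSeq (version 07.2 in the submitters' processing notes, with FastQC 0.11.5), and deposited raw read counts per gene and library. The labels name a TruSeq V2 kit. The study's methods name a stranded KAPA kit, under a heading on unique mutations rather than on these tumours. The strand setting and annotation release are not given in the sources used here. The 5 summary lines, 44.8% to 86.5% of reads, were left out of totals and tests. Library totals were 7883106 to 41751023 counts, and floors cover counting error only.

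CPM was computed over 37417 genes. Classes were set by H2-Ea-ps above 10 CPM, Cp above 1000 CPM, or neither. The members and lists were chosen with earlier results of these data known. Labelled groups were compared with edgeR 4.0.16 in R 4.3.3 (filterByExpr, TMM, robust quasi-likelihood test, Benjamini-Hochberg adjustment over all genes tested), with DESeq2 1.42.0 and limma 3.58.1 as alternatives. Each tumour has its own number in the labels, taken here to stand for 1 mouse. Relations within classes used log2(CPM + 0.5) and 100000 permutations. The planned adjustment over 30 relations was replaced, after the data were seen, by an edgeR fit of counts on the score over all genes, with adjustment over all of them. The genes named beside the members were the 3 nearest to each by correlation among genes averaging at least 10 CPM, at most 6 neighbouring pathway genes whose classes do not overlap, by size of difference, and Cda. Dut, named in addition, was chosen after its values were seen. Scripts were tested on simulated data with 200 changed genes. The simulated libraries had no expression classes, so that test does not measure power in the labelled comparisons. Promoter sequences are from RefSeq (GRCm38.p6), exon lengths from GENCODE, and figures from matplotlib 3.10.9. Permutation tests were run with numpy 2.4.6 under Python 3.11.15.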

Additional observations from a re-analysis of the deposited data

Results flagged for a closer look

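In 11 of 90 sets of 4 libraries (1 gene in 1 labelled group), the highest or lowest library lay farther from the others than Dixon's 95% limit allows, where chance gives about 4.5. In 5 of the 11 no other library of the group was of the same expression class, and 3 of the 11 were in PancO2 anti-PD-1 71. In 8 of the 9 labelled groups the 4 libraries span all 3 classes. A library alone in its class is therefore common, and the 5 are not read as a result.

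Among the synthesis genes, Cad had 83.8 CPM in MC38 anti-CTLA4 8, against 150.4 to 158 CPM in the rest of its group, and Tyms had 38.3 CPM in MC38 IgG 7, against 53.8 to 56.9 CPM. Ctps2 had 68.3 CPM in CT26 IgG 28, against 39.6 to 42.004 CPM. These 3 were the Cp-high libraries of their groups. Cmpk1 had 125 CPM in PancO2 anti-PD-1 71, against 87.2 to 88.5 CPM.

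Among the catabolic genes, Dpyd had 2.92 CPM in PancO2 anti-PD-1 71, against 0 to 0.0719 CPM, and 0.280 CPM, from 10 counts, in PancO2 IgG 48, against 0 to 0.0422 CPM. Dpys had 0.934 CPM in CT26 anti-CTLA4 34, against 0.0744 to 0.169 CPM. Upb1 had 145 CPM in PancO2 anti-PD-1 71 (1.32 to 1.94 CPM in the others), 7.01 CPM in PancO2 IgG 48 (0.768 to 1.42 CPM), 2.73 CPM in MC38 anti-PD-1 18 (1.11 to 1.37 CPM) and 2.11 CPM in CT26 anti-CTLA4 35 (0.930 to 1.024 CPM).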

How the results depend on the processing

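All 120 recomputed log2 differences of class medians moved by less than 1 SD of the libraries of a class. The SD used was that of the class with the largest spread, also where that class was not in the comparison, so this limit is a loose one. Of the 8 members, those not overlapping between the Cp-high and Cp-intermediate classes fell from 5 to 2 with limits of 1 and 500 CPM, which move PancO2 IgG 49 to another class, and were 4 with TMM-scaled CPM or DESeq2 size factors, where Ctps2 replaced Cad and Tyms. Between the Cp-high and H2-Ea-expressing classes they rose from 1 to 2 with DESeq2 size factors and to 2 without PancO2 anti-PD-1 71. Between the H2-Ea-expressing and Cp-intermediate classes they went from 1 to 0 with TMM-scaled CPM, to 0 with DESeq2 size factors and to 2 without that library. Of 30 relations to the mitotic score, 4 had a permutation p under 0.05. There were 14 with the replication score, 2 without the 2 farthest libraries and, in alternatives chosen after seeing the data, 12 with the replication score and without PancO2 anti-PD-1 71 and 16 with the replication score and TMM-scaled CPM. Relations to the macrophage score went from 1 to 2 with TMM-scaled CPM. The edgeR count of members following the mitotic score in the Cp-high class, 3 in all and also chosen after seeing the data, ran from 0 to 4 over single left-out libraries. Of 24 names of like genes, 7 were kept without PancO2 anti-PD-1 71. The cause of these changes was not tested.

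The sign of r changed in 10 recomputed values of single members. In the H2-Ea-expressing class r became -0.0845 for Umps and -0.476 for Ctps without PancO2 anti-PD-1 71, -0.165 for Ctps2 with the replication score and without that library, and -0.171 for Tyms with the replication score. In the Cp-high class r for Ctps2 became 0.0353 with TMM-scaled CPM and 0.258 with the replication score as well. In the Cp-intermediate class r became -0.0622 for Cad without the 2 farthest libraries and, for Ctps, 0.704 with the replication score, with or without that library, and 0.715 with TMM-scaled CPM too. The cause was not tested.

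In the labelled comparisons edgeR called 0 genes under every alternative, leaving out each library in turn or adding a class term included, and limma-voom called 0. DESeq2's Wald test called 1 gene in PancO2 against MC38, 1 in CT26 against MC38, 2 in PancO2 anti-PD-1 against IgG and 2 in PancO2 anti-CTLA4 against IgG, none of them a member. No paired analysis was possible because no number in the labels is shared between groups. Depth limits Dpyd and Dpys, where a count of 0 allows up to 0.0719 to 0.381 CPM.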
